A study of Mus musculus with 9 samples.

Results

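The genes described here encode the antioxidant enzymes of the cell and the targets of NRF2, the transcription factor encoded by Nfe2l2. Of 37 genes on the list, 33 were measured among the 18193 genes of the array table. A gene was taken where a probe set, the group of short probes that reads 1 transcript on the array, was annotated with that symbol alone. The brightest such probe set over all 9 arrays stood for the gene. Prdx1, Prdx5, Prdx6 and G6pdx had no such probe set in the annotation used here and were not analysed.

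Podocytes, whose foot processes form the outer layer of the glomerular filter, were compared between 5 OVE26 diabetic mice and 4 normal mice, all on the FVB background and aged 3 to 4 months. OVE26 mice develop early diabetes from a calmodulin transgene driven in pancreatic beta cells by an insulin promoter. The diabetic group was labelled OVE-GFP, a cross of OVE26 with mice whose podocytes carry eGFP, and the normal group was labelled wild type. The same protocol of glomerular isolation on magnetic beads, trypsin digestion and sorting by fluorescence was given for both groups, and neither the promoter of eGFP nor its presence in the normal mice is given in the sources used here.

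NRF2 is held in the cytoplasm and marked for degradation by KEAP1, a cysteine-rich adaptor of a cullin ubiquitin ligase. Oxidants and electrophiles that modify KEAP1 release NRF2, which pairs with small MAF proteins on antioxidant response elements in DNA. Its targets make glutathione, recycle thioredoxin, reduce quinones, conjugate toxic molecules and supply NADPH. Oxidant production by NADPH oxidases is much studied in the diabetic kidney, podocytes included.

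Promoter sequences are shown for the member that passed the test and for the member with the largest difference, so that the presence or absence of the element's core can be seen. The core was searched as TGACNNNGC on both strands of RefSeq promoters of the GRCm38.p6 build, which run from 250 bases before to 50 after each annotated start. Among the 37 listed genes 31 matched a promoter, and 11 of them (35.5%) held the core in at least 1 promoter, against 14.0% of the 27025 genes in the table. Counted by promoter, 12.4% of all 32851 held it. The 250 bases before the start are given 5′ to 3′ on the gene's strand, in lower case with the core in capitals.
Gstt1 (chr10:75797732-75797981, minus strand): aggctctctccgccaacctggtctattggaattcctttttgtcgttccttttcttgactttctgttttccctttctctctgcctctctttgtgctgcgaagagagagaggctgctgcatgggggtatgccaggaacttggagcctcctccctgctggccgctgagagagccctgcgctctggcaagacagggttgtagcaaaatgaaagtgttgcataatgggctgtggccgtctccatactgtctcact
Gsta3 (chr1:21240335-21240584, plus strand): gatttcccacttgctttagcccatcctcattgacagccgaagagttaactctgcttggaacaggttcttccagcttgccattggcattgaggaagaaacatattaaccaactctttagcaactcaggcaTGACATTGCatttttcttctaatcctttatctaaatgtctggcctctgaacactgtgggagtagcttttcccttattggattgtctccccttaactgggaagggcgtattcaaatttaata
The Gsta3 core began 121 bases before the start, and the Gstt1 stretch held none. No match says only that these letters are not in this window.

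The other matches are shown as windows of 29 bases, 10 on each side of the core, read in the direction of the core, because they let the 3 free bases and the flanks be compared between members.
Gclm (core chr3:122245423-122245431): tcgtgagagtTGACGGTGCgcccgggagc
Ugdh (core chr5:65435966-65435974): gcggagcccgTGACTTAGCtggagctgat
Ugdh (core chr5:65435928-65435936): ccgaactgtaTGACCACGCcccttgagga
Srxn1 (core chr2:152105552-152105560): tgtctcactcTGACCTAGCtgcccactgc
Txnrd1 (core chr10:82859114-82859122): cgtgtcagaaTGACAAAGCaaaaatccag
Prdx1 (core chr4:116685466-116685474): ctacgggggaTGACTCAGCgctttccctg
Me1 (core chr9:86695912-86695920): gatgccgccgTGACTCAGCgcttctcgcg
Nfe2l2 (core chr2:75704895-75704903): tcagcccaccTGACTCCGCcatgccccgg
Sod1 (core chr16:90220706-90220714): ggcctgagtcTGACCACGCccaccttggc
G6pdx (core chrX:74428929-74428937): gcgtgtgcttTGACTGAGCtgacccgcct
Pgd (core chr4:149166071-149166079): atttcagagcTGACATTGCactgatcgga
Prdx1 and Me1 shared the core TGACTCAGC, Sod1 and 1 of the 2 Ugdh matches shared TGACCACGC, and Pgd shared the core of Gsta3. The Srxn1 and Pgd cores lay after the annotated start and that of Me1 spanned it. The core was on the gene's own strand for Gsta3, Me1, Nfe2l2, Pgd and 1 of the 2 Ugdh matches, and on the opposite strand for the others. These sequences are of the reference strain and the FVB strain was not read.

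Gstt1 rose in OVE26 sorts and was the only member past the threshold of an adjusted p under 0.05 (limma, adjusted over all 18193 genes), whereas 32 of 33 did not pass and 0 fell. That is 1 higher member in 33, where 0.473% of all genes were called higher and 0.132% lower. At an unadjusted limma p under 0.05, 11 members were higher in OVE26 sorts and 0 lower, which is 33.3% of the measured members beside 9.03% of all genes higher and 6.07% lower. In 6 members (Gsta3, Gstt1, Nqo1, Hmox1, Srxn1 and Pgd) every OVE26 array lay above every FVB array, 18.2% of them beside 3.64% of all genes. In 0 members did every OVE26 array lie below, beside 2.62% of all genes.

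All values are log2 intensities and all differences are OVE26 minus FVB on that scale. The members' differences ran from -0.29 (Sod3) to 1.55 (Gsta3), with 25 above 0 and 8 below, and their median was 0.21 where that of all genes was 0.01. All 33 members were at or above the 40th percentile of mean intensity (5.03). Among the 10916 genes as bright, 11.6% were higher and 8.35% lower at an unadjusted p under 0.05, and 4.96% had every OVE26 array above every FVB array. The list was drawn up with earlier results of these data known, so these counts describe it and are not a test of it.

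**Figure D1:**
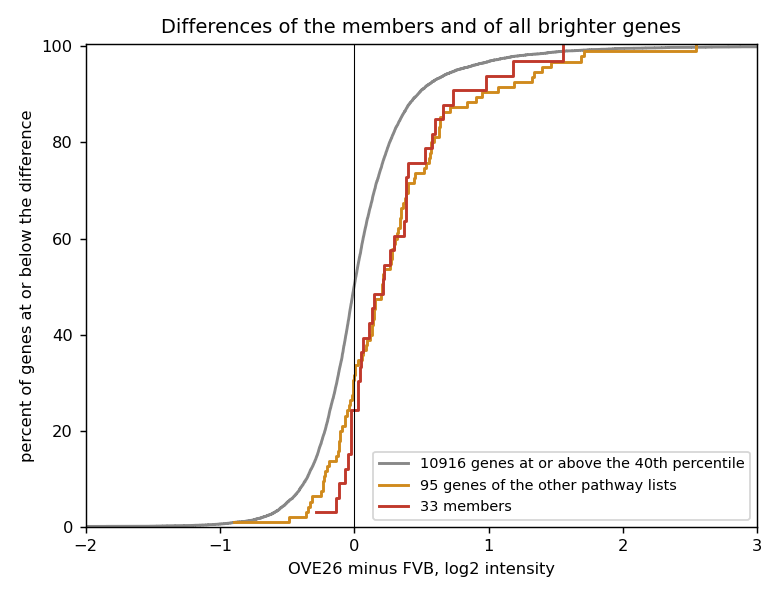
Cumulative percent of genes (vertical axis) against the OVE26 minus FVB difference in log2 intensity (horizontal axis) for the 33 members, 95 genes of other redox lists and 10916 genes at or above the 40th percentile of mean intensity. Over most of its range the curve of the members lies to the right of that of all brighter genes, with a median of 0.21.

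Podocyte markers were bright on every array, and markers of other kidney cells were read beside them. The slit diaphragm gene Nphs1 had a mean of 11.40 ± 0.29 on the OVE26 arrays (SD, n = 5) and of 11.90 ± 0.23 on the FVB arrays (SD, n = 4), and the sialomucin gene Podxl at 12.99 ± 0.04 and 13.10 ± 0.02. The summed linear intensity of 16 podocyte markers ran from 44363 to 56208 in OVE26 against from 53453 to 60166 in FVB arrays, with 0 of 16 past the threshold of limma and 15 of 16 differences below 0. At an unadjusted p under 0.05, 6 of the 16 (37.5%) were lower and 0 higher, and in 6 every OVE26 array lay below every FVB array, beside 2.62% of all genes. Of 21 distal nephron markers (loop of Henle to collecting duct), 3 rose (Atp6v0d2, Slc26a4 and Fxyd4) and 21 of 21 differences were above 0, with sums from 5933 to 13397 against 2267 to 9220. Their median difference was 1.38. At an unadjusted limma p under 0.05, 15 of the 21 (71.4%) were higher and 0 lower, beside 9.03% and 6.07% of all genes. In 8 (38.1%) every OVE26 array lay above every FVB array, beside 3.64% of all genes. Of 19 macrophage and myeloid markers 0 passed by limma, with sums from 899 to 3336 against 781 to 1088. At an unadjusted limma p under 0.05, 9 of the 19 (47.4%) were higher and 0 lower. In 7 (36.8%) every OVE26 array lay above every FVB array, beside the same shares of all genes. Within this list Itgam stayed under 3.31, the 25th percentile of an array's values on average, on all 9 arrays. Keratins Krt8, Krt18 and Krt19 rose among 9 parietal epithelial markers, whose sums ran from 3357 to 5851 against 2045 to 3727. In bulk RNA, fewer cells of a type and less RNA per cell cannot be told apart. A list's score is the mean of its markers' log2 values, each centred on its mean over the arrays. The distal score ran from 0.22 to 1.58 in OVE26 against -1.43 to -0.06 in FVB arrays. The myeloid score ran from -0.24 to 0.93 against -0.65 to -0.33. Neither overlapped, so a fit with either as a covariate cannot clearly divide a difference between group and score.

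The array of OVE26 2 stood apart. Its 20 proximal tubule markers summed to 2783, against 12724 to 14583 on the other OVE26 arrays and 9485 to 20307 on the FVB arrays. Its distal sum of 13397 was the highest of the 9, and its myeloid sum of 899 the lowest of the OVE26 arrays. It was also the lowest OVE26 array for 17 of the 33 members (51.5%), and the lowest for 2726 of the 10916 genes at or above the 40th percentile. Without OVE26 2 the median difference of the members was 0.35, and 11 of them had every remaining OVE26 array above every FVB array. As the lowest OVE26 array for many of them was left out, such separation became easier. The share of all genes without overlap was not counted in that fit. Xist lay above the Y-linked genes on 3 OVE26 arrays (2, 3 and 5) and 1 FVB array (2), so the labels' unstated sex differed in balance between the groups.

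**Figure D2:**
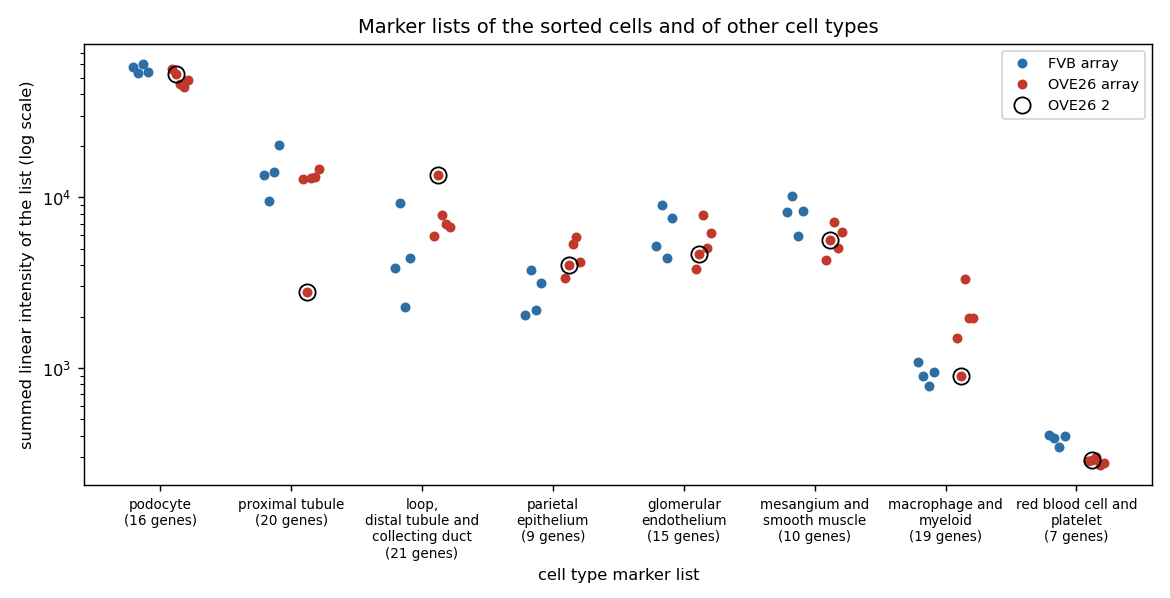
Summed linear intensity of each cell type marker list (vertical axis, log scale) on each FVB and OVE26 array, with a point per array and a ring around OVE26 2. OVE26 2 is lowest for proximal tubule markers (2783) and highest for the distal nephron (loop, distal tubule and collecting duct) markers (13397).

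Neither regulator passed. Nfe2l2, the NRF2 gene, read 9.15, 9.23, 9.39, 8.62 and 9.49 in OVE26 1 to 5 and 8.99, 9.40, 9.07 and 9.08 in FVB 1 to 4. The groups overlapped, with OVE26 4 the lowest of all 9. The difference was 0.04 (95% interval -0.36 to 0.44, limma adjusted p = 0.952). Keap1, the repressor, read 9.31, 9.44, 9.46, 8.55 and 9.25 in OVE26 against 9.12, 9.26, 9.56 and 9.31 in FVB arrays. OVE26 4 was again the lowest array. The Keap1 difference was -0.11 (95% interval -0.54 to 0.32, adjusted p = 0.855). NRF2 is regulated mainly at the level of protein stability, which arrays do not read.

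A dimmer probe set annotated to Nfe2l2 read otherwise. It gave 5.61, 6.31, 5.78, 8.61 and 5.56 in OVE26 against 4.34, 4.54, 4.36 and 4.03 in FVB arrays, so that every OVE26 array was above every FVB array and OVE26 4 far above the rest. Its difference was 2.06 (SE 0.56, limma adjusted p = 0.143 with all probe sets tested singly). The transcript it reads was not analysed here.

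Among the stress-induced targets, Nqo1 and Hmox1 were higher on every OVE26 array than on any FVB array, although neither passed the adjusted threshold. Nqo1 encodes the quinone reductase that is the usual read-out of NRF2 activity. Its values were 6.71, 7.66, 7.12, 7.55 and 6.69 in OVE26 against 5.69, 6.46, 6.01 and 6.51 in FVB arrays. The lowest OVE26 array, OVE26 5, exceeded the highest FVB array, FVB 4, by little. The difference was 0.98 (SE 0.25), or 1.97-fold (limma adjusted p = 0.112). With the distal nephron score as a covariate it was 0.32 (adjusted p = 0.814). Hmox1, heme oxygenase 1, breaks down heme and is also strongly made by macrophages. It read 7.11, 6.55, 6.69, 7.26 and 6.81 in OVE26 against 6.06, 6.09, 6.40 and 6.35 in FVB arrays. OVE26 1 and OVE26 4 were highest and OVE26 2 lowest of the diabetic arrays. The difference was 0.66 (SE 0.16), or 1.58-fold (adjusted p = 0.103), or 0.55 (adjusted p = 0.429) with the score of the macrophage and myeloid markers as a covariate and 1.08 (adjusted p = 0.349) with the distal nephron score. The summed level of the macrophage and myeloid markers was higher on 4 of the 5 OVE26 arrays than on any FVB array.

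Osgin1 and Ugdh overlapped between groups. Osgin1, an oxidative stress-induced growth inhibitor, read 6.64, 6.05, 6.79, 6.79 and 6.86 in OVE26 against 5.87, 6.29, 5.93 and 6.29 in FVB arrays. Only OVE26 2 lay within the FVB range. The difference was 0.53 (SE 0.18, limma adjusted p = 0.208), and with the macrophage and myeloid covariate it was -0.11. Ugdh, which makes UDP-glucuronic acid for conjugation, ran from 7.36 to 8.17 in OVE26 against from 7.39 to 7.60 in FVB arrays (0.30, adjusted p = 0.406).

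**Figure D3:**
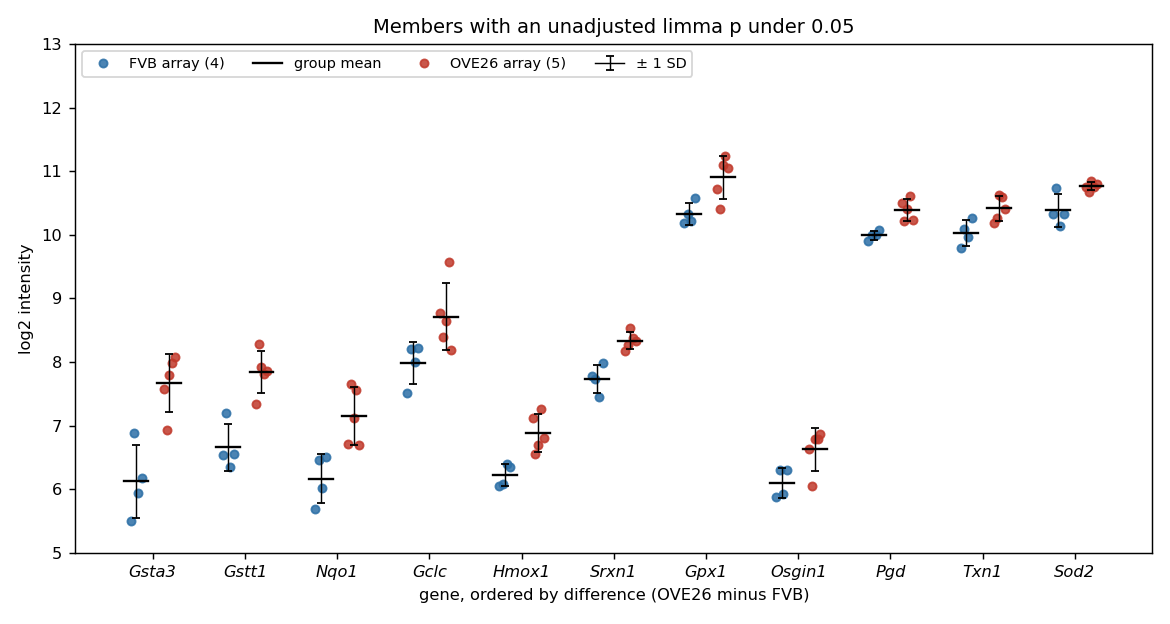
Log2 intensity (vertical axis) of the 11 members with an unadjusted limma p under 0.05, ordered by difference (horizontal axis), with a point per array, group means as bars and 1 SD as error bars. The OVE26 points of Gsta3, Gstt1, Nqo1, Hmox1, Srxn1 and Pgd all lie above the FVB points of the same gene.

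None of the 4 genes of glutathione synthesis and recycling passed. Gclc, the catalytic subunit of the rate-limiting ligase, read 8.78, 8.40, 8.64, 9.57 and 8.19 in OVE26 against 7.51, 8.20, 7.99 and 8.22 in FVB arrays. OVE26 4 was far above the others, and OVE26 5 lay within the FVB range. The difference was 0.73 (SE 0.27), or 1.66-fold (limma adjusted p = 0.230), and its other probe set differed by 0.73 too. The difference was 0.39 (adjusted p = 0.764) with the macrophage and myeloid covariate and 1.27 (adjusted p = 0.206) on the arrays where Y-linked genes exceeded Xist. Gclm, the modifier subunit, differed by 0.37 (adjusted p = 0.468), with FVB 2 at 7.53 among OVE26 values from 6.75 to 7.70. Gss, the synthetase of the last step, differed by 0.03 (95% interval -0.56 to 0.62, adjusted p = 0.977). Gsr, the reductase that regenerates glutathione, ran from 9.36 to 10.26 in OVE26 against from 9.16 to 9.63 in FVB arrays (0.39, adjusted p = 0.363).

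In the thioredoxin system Srxn1 was the member whose groups did not overlap. It encodes sulfiredoxin, which repairs over-oxidised peroxiredoxins. The values were 8.18, 8.27, 8.53, 8.37 and 8.34 in OVE26 against 7.78, 7.73, 7.45 and 7.99 in FVB arrays. The lowest OVE26 array, OVE26 1, lay above the highest FVB array, FVB 4. The difference was 0.60 (SE 0.13), or 1.52-fold (limma adjusted p = 0.0723). All 4 probe sets of the gene differed in that direction, by 0.55 to 0.74. With their mean in place of the brightest, Srxn1 passed (0.64, adjusted p = 0.0243). It also passed with the red blood cell and platelet score as a covariate (0.63, adjusted p = 0.0278), but with the macrophage and myeloid score the difference was 0.34 (adjusted p = 0.498). Over 24 refits Srxn1 passed in 2, with differences from 0.34 to 0.68 and limma adjusted p from 0.0243 to 0.572.

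Txn1, cytosolic thioredoxin, read 10.18, 10.27, 10.63, 10.60 and 10.41 in OVE26 against 9.80, 10.09, 9.97 and 10.27 in FVB arrays. The groups overlapped only through FVB 4. The difference was 0.39 (SE 0.14, limma adjusted p = 0.210), and a dimmer probe set differed by 0.04. With the macrophage and myeloid covariate the Txn1 difference was 0.05 (adjusted p = 0.948). Txnrd1, the selenium-containing reductase of thioredoxin, differed by 0.11 (95% interval -0.16 to 0.38, adjusted p = 0.747). The mitochondrial thioredoxin gene Txn2 differed by -0.05 (95% interval -0.42 to 0.33, adjusted p = 0.941).

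The peroxiredoxins that could be read, thiol enzymes that reduce hydrogen peroxide, did not pass at either threshold. Prdx2, of the cytosol, differed by 0.21 (95% interval -0.07 to 0.49, limma adjusted p = 0.474). Prdx3, of mitochondria, differed by -0.02 (95% interval -0.35 to 0.31, adjusted p = 0.969). Prdx4, of the endoplasmic reticulum, was at 5.06 on OVE26 2 and from 6.35 to 6.89 on the other OVE26 arrays, against 6.13 to 6.44 in FVB arrays. Its difference was 0.05 (95% interval -0.68 to 0.78, adjusted p = 0.971), and the 3 other probe sets differed by -0.66, -0.21 and -0.0077.

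Of the superoxide dismutases and catalase, only the mitochondrial enzyme gene had an unadjusted p under 0.05. Sod2 read 10.75, 10.67, 10.85, 10.76 and 10.80 in OVE26 against 10.32, 10.74, 10.14 and 10.33 in FVB arrays. The 5 OVE26 values were nearly equal, and FVB 2 lay among them. The difference was 0.39 (SE 0.13, limma adjusted p = 0.185). Without FVB 2 it was 0.50 and passed (adjusted p = 0.0465). It was 0.19 (adjusted p = 0.811) with the distal nephron score as a covariate and 0.16 (adjusted p = 0.779) with the macrophage and myeloid score. Of its 4 probe sets 3 agreed in direction and 1 differed by -0.09.

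Sod1, the cytosolic copper-zinc enzyme, ran from 11.97 to 12.06 in OVE26 against from 11.93 to 12.13 in FVB arrays, a difference of -0.02 (95% interval -0.22 to 0.17, adjusted p = 0.944). Its 4 other probe sets differed by 0.05 to 0.43. Cat, catalase, differed by 0.07 (95% interval -0.13 to 0.27, adjusted p = 0.801). Both upper limits lay below the Srxn1 difference of 0.60. Sod3, the secreted enzyme, had the lowest difference of all members, at -0.29 (95% interval -0.66 to 0.08, adjusted p = 0.463). Red cells are rich in Cat and Prdx2. The 7 red blood cell and platelet markers measured summed to 269 to 301 in OVE26 and 342 to 405 in FVB arrays, and 1 of them (Slc25a37) fell. Of the 7 differences 4 were above 0 and 3 below, with a median of 0.02, so the sum does not stand for each marker. Of the 7, Hba-a1 and Ppbp stayed under that percentile on all 9 arrays and the other 5 did not. Their part in the values of Cat and Prdx2 was not tested.

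None of the 3 glutathione peroxidases, selenoenzymes that reduce peroxides with glutathione, passed the adjusted threshold. Gpx1, of cytosol and mitochondria, read 10.72, 10.41, 11.10, 11.23 and 11.05 in OVE26 against 10.18, 10.32, 10.22 and 10.57 in FVB arrays. OVE26 2 was the only diabetic array within the FVB range. The difference was 0.58 (SE 0.18), or 1.49-fold (limma adjusted p = 0.158). It was -0.02 with the macrophage and myeloid covariate. It passed with the red blood cell and platelet score as a covariate (0.64, adjusted p = 0.0493).

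Gpx3 is the plasma enzyme, which the kidney makes mainly in proximal tubule. It was at 11.67 on OVE26 2 and from 12.50 to 12.78 on the other OVE26 arrays, against 12.17 to 12.62 in FVB arrays. The low array was the one with the low proximal tubule markers. The difference was 0.15 (95% interval -0.36 to 0.66, limma adjusted p = 0.828), or 0.36 (adjusted p = 0.214) without OVE26 2. Gpx4, which protects membranes from lipid peroxides, differed by 0.03 (95% interval -0.23 to 0.29, adjusted p = 0.944).

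The glutathione S-transferases, which join glutathione to electrophiles, held the largest differences of the list and some of the smallest. Gstt1, of the theta class, read 7.35, 8.28, 7.92, 7.82 and 7.85 in OVE26 against 6.53, 7.20, 6.34 and 6.55 in FVB arrays. The groups did not overlap, with OVE26 1 the lowest diabetic and FVB 2 the highest normal array. Means were 7.84 ± 0.33 (SD, n = 5) and 6.66 ± 0.37 (SD, n = 4). The difference was 1.19 (SE 0.21), or 2.27-fold (limma adjusted p = 0.0463). Within the arrays where Y-linked genes exceeded Xist (2 OVE26, 3 FVB) it was 1.11, and among those where Xist exceeded them (3 OVE26, 1 FVB) it was 0.82. With the sex genes as a covariate it was 0.99 and missed the threshold (adjusted p = 0.0512).

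The Gstt1 call was close to the threshold. When 1 array was left out, Gstt1 passed in 2 of 9 fits, with differences from 1.08 to 1.37. It missed without OVE26 2 (adjusted p = 0.0579), OVE26 3 (0.101), OVE26 4 (0.0800), OVE26 5 (0.0959), FVB 1 (0.155), FVB 3 (0.145) or FVB 4 (0.145). With the score of the distal nephron markers as a covariate the difference was 0.43 (limma adjusted p = 0.604), and with the macrophage and myeloid score 1.23 (adjusted p = 0.235). Standard errors of the members were larger in those 2 fits, with median ratios of 1.71 for each to the fit with group alone. That of Gstt1 was 0.22 with the distal score and 0.40 with the macrophage and myeloid score, against 0.21 with group alone. The distal score lay higher on every OVE26 array than on any FVB array, so that fit cannot divide the Gstt1 difference between group and score. OVE26 2, with the highest Gstt1 value of 8.28, also had the highest distal marker sum. The part of distal cells in the Gstt1 values was not tested.

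Gsta3, an alpha-class transferase, read 7.57, 6.94, 7.80, 7.98 and 8.08 in OVE26 against 5.49, 6.88, 5.94 and 6.18 in FVB arrays. OVE26 2 and FVB 2 nearly met, and all other arrays were well apart. Means were 7.67 ± 0.46 (SD, n = 5) and 6.12 ± 0.58 (SD, n = 4). The difference was 1.55 (SE 0.30), or 2.94-fold (limma adjusted p = 0.0532). It passed without OVE26 2 (1.74, adjusted p = 0.0345) and without FVB 2 (1.81, adjusted p = 0.0154). With the macrophage and myeloid score as a covariate it was 0.65 (adjusted p = 0.526), and with the distal score 1.67 (adjusted p = 0.460). Its difference was 1.91 on the arrays where Y-linked genes exceeded Xist and 0.73 on those where Xist exceeded them. A dimmer probe set differed by 0.96.

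The other transferases overlapped between groups. Gsta4, which conjugates lipid aldehydes, ran from 11.49 to 12.21 in OVE26 against from 11.57 to 12.11 in FVB arrays (-0.07, limma adjusted p = 0.899). Gstp1, of the pi class, differed by -0.02 (95% interval -0.34 to 0.29, adjusted p = 0.969). The mu-class genes Gstm1 and Gstm2 differed by 0.22 (adjusted p = 0.749) and 0.13 (adjusted p = 0.876). Gstm2 had a wide FVB spread, from 7.19 on FVB 3 to 8.58 on FVB 2. Probe sets of mu- and pi-class genes may read near-identical family members, so their separate values are uncertain.

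**Figure D4:**
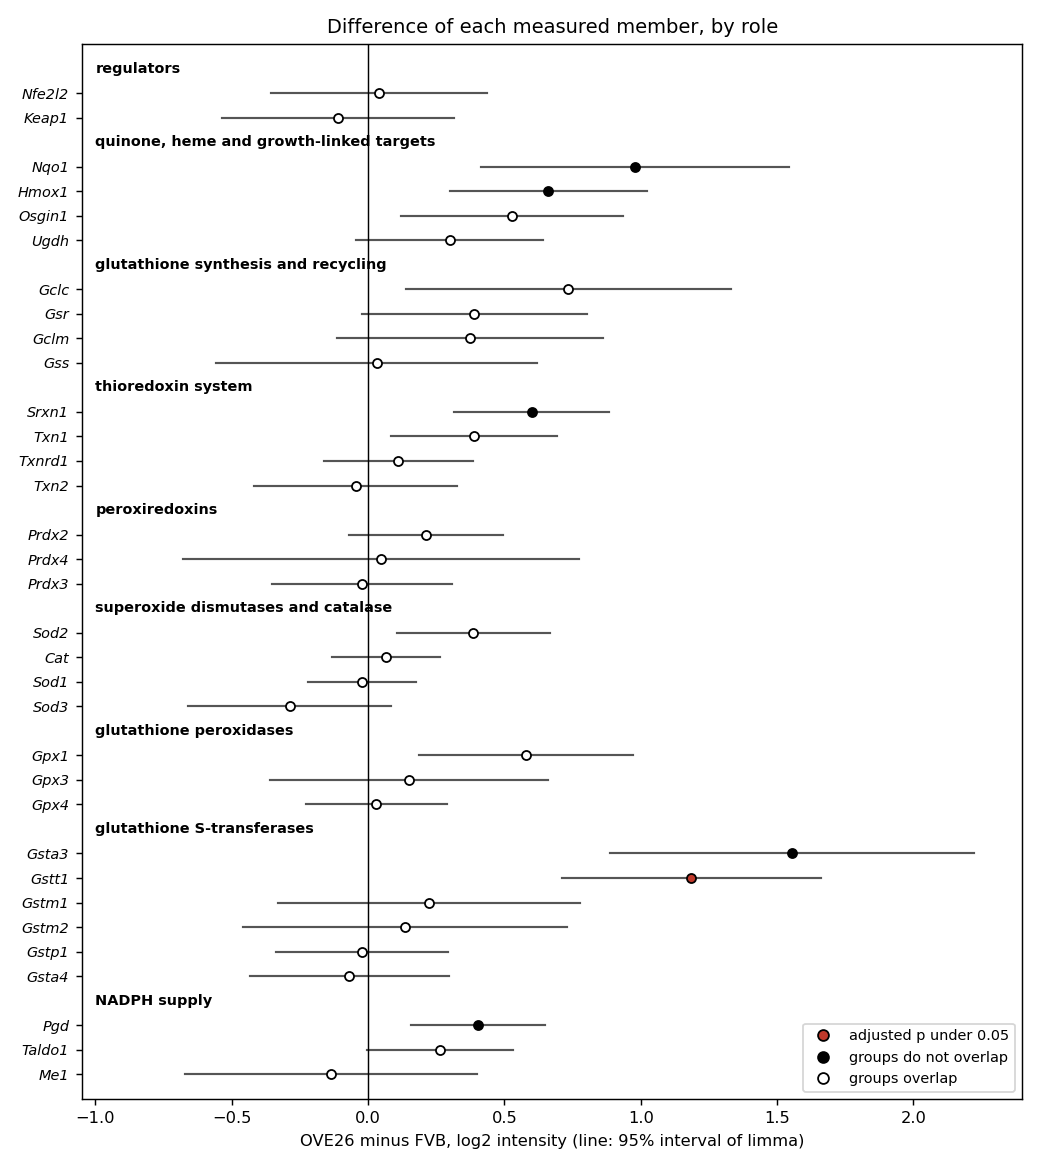
OVE26 minus FVB difference in log2 intensity (horizontal axis) with the 95% interval of limma for each of the 33 measured members, grouped by role. Gstt1 (filled red) passed the adjusted threshold, and Gsta3, Nqo1, Hmox1, Srxn1 and Pgd (filled black) did not, although their groups did not overlap.

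Of the genes that supply NADPH, the electron donor of both the glutathione and thioredoxin systems, Pgd had groups that did not overlap. Pgd encodes the second oxidative enzyme of the pentose phosphate pathway. It read 10.50, 10.22, 10.40, 10.61 and 10.23 in OVE26 against 9.90, 9.99, 9.99 and 10.07 in FVB arrays. Every OVE26 array was above every FVB array, and the FVB arrays lay close together. The difference was 0.40 (SE 0.11), or 1.32-fold (limma adjusted p = 0.123), and all 4 probe sets differed in that direction. With the macrophage and myeloid covariate it was 0.26 (adjusted p = 0.582). Taldo1, transaldolase, ran from 6.99 to 7.47 in OVE26 against from 7.00 to 7.15 in FVB arrays (0.26, adjusted p = 0.336). Me1, the cytosolic malic enzyme, differed by -0.14 (adjusted p = 0.856), with FVB 3 at 8.04 and FVB 4 at 8.16 far above FVB 1 at 7.33 and FVB 2 at 7.31.

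Seen by array, the OVE26 sorts were not alike. The median deviation of the members from their FVB means was 0.26 on OVE26 1, 0.01 on OVE26 2, 0.44 on OVE26 3, 0.40 on OVE26 4 and 0.29 on OVE26 5. On the FVB arrays it ran from -0.13 to 0.06. OVE26 2 thus lay within the FVB range, although it had the highest values of Nqo1, Gstt1 and Prdx2. OVE26 4 was highest of the OVE26 arrays for 7 members (Hmox1, Ugdh, Gclc, Gsr, Txnrd1, Gpx1 and Pgd), 21.2% of them beside 21.5% of the brighter genes, and lowest for 4 (Nfe2l2, Keap1, Prdx2 and Gstp1). Among normal mice FVB 1 was the lowest array for 17 of 33 members (51.5%, beside 26.2% of genes at or above the 40th percentile).

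**Figure D5:**
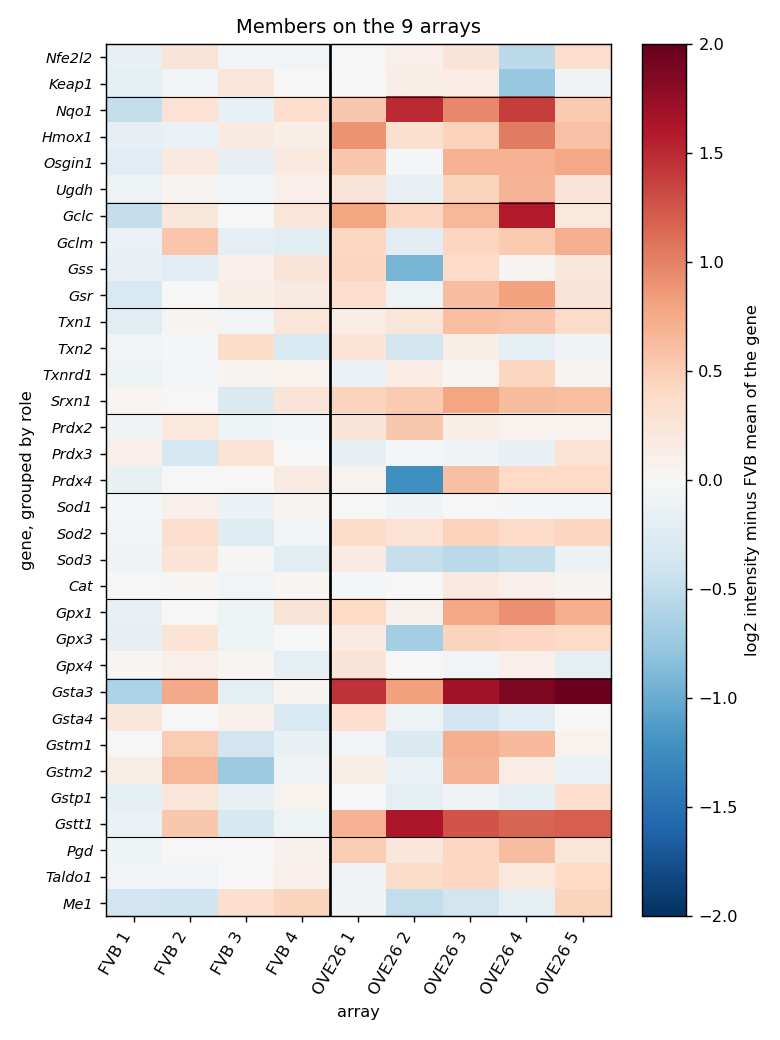
Log2 intensity of each member minus its FVB mean (colour scale) on the 4 FVB and 5 OVE26 arrays (horizontal axis), with genes grouped by role (vertical axis). Gsta3 and Gstt1 are red on all 5 OVE26 arrays, and OVE26 2 is blue for Prdx4, Gss and Gpx3.

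The wider pathway was read from 5 further lists that hold 103 genes, of which 95 were measured. In the list of other NRF2 targets and conjugating enzymes, 3 of 33 rose, 0 fell and 30 did not pass by limma, with a median difference of 0.30. The 3 are 9.09% of the list, where 0.473% of all genes were called higher and 0.132% lower. At an unadjusted limma p under 0.05, 12 were higher (36.4%) and 2 lower (6.06%), beside 9.03% and 6.07% of all genes. In 6 (18.2%) every OVE26 array lay above every FVB array, beside 3.64% of all genes. Abcc3, an efflux pump for conjugates, read 5.86, 6.13, 6.03, 5.52 and 5.84 in OVE26 against 4.31, 3.92, 4.35 and 5.07 in FVB arrays. It rose by 1.47 (SE 0.22, adjusted p = 0.0248), and the groups did not overlap. Gstm5, a mu-class transferase, read 7.33, 6.96, 7.70, 7.59 and 7.49 against 5.89, 6.45, 6.01 and 6.56. It rose by 1.19 (SE 0.19, adjusted p = 0.0294), again with no overlap. As with other mu-class genes, its probe set may read near-identical family members. Abcc4, an efflux pump of the same family, read 6.50, 7.11, 7.29, 7.48 and 7.12 against 5.34, 6.44, 5.54 and 5.47. It rose by 1.40 (SE 0.25, adjusted p = 0.0469), with FVB 2 nearly at the level of OVE26 1. With the distal score, or the macrophage and myeloid score, as a covariate, 0 of all genes were called higher, these 3 included. When 1 array was left out, Abcc3 passed in 5 of 9 fits (missed without OVE26 3, OVE26 5, FVB 1 or FVB 3), Gstm5 in 2 (missed unless the array was OVE26 2 or FVB 2) and Abcc4 in 2 (missed unless it was OVE26 1 or FVB 2), with adjusted p up to 0.0976, 0.109 and 0.155.

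The other lists had 0 genes past the adjusted threshold of limma. Their counts at an unadjusted p under 0.05 stand beside 9.03% of all genes higher and 6.07% lower, and 11.6% and 8.35% of the genes at or above the 40th percentile. Of 15 partners and regulators of NRF2, 1 was higher and 1 lower at that level (6.67% each), shares near those of all genes, and the median difference was -0.07. Maff, a small MAF partner, differed by 0.91 (adjusted p = 0.210), Bach2, a repressor at the same elements, by -0.49 (adjusted p = 0.289), and Sqstm1, the autophagy adaptor that binds KEAP1, by -0.33 (adjusted p = 0.432). Of 22 other thiol and peroxide enzymes, 8 were higher (36.4%) and 1 lower (4.55%), with a median of 0.31. Glrx, glutaredoxin, differed by 0.71 (adjusted p = 0.0693), Pon2, a lactonase with antioxidant action, by 0.57 (adjusted p = 0.0805), and Glrx5, of mitochondrial iron-sulfur assembly, by 0.38 (adjusted p = 0.145).

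Of 12 further genes of NADPH supply, 3 were higher (25%) and 1 lower (8.33%) at an unadjusted p under 0.05, with a median of 0.21. Me3, a mitochondrial malic enzyme, differed by 0.84 (adjusted p = 0.120), Idh2, mitochondrial isocitrate dehydrogenase, by 0.44 (adjusted p = 0.161), and Tkt, transketolase, by 0.40 (adjusted p = 0.186). Of 13 genes of oxidant sources, 2 were higher (15.4%, near the share of the brighter genes) and 0 lower at an unadjusted p under 0.05, with a median of 0.20. Nox4, the NADPH oxidase of kidney epithelium, read 7.37, 6.62, 7.97, 8.03 and 8.21 in OVE26 against 5.31, 7.59, 5.94 and 6.40 in FVB arrays. FVB 2 lay within the OVE26 range. The Nox4 difference was 1.33 (SE 0.46, limma adjusted p = 0.208). Cybb, the phagocyte oxidase, differed by 1.34 (adjusted p = 0.198), and OVE26 2, the OVE26 array lowest in myeloid markers, had its lowest OVE26 value of 3.97. Maob, a monoamine oxidase, was below the 25th percentile on average in both groups.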

How the data were processed

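RNA of sorted podocytes from 5 OVE26 and 4 FVB mice was amplified, biotin-labelled and read on 1 array per mouse, per the labels' protocols. The authors deposited linear intensities per probe set, a scale read from the range of the values. RMA and Partek are named per the submitters' processing notes, with versions and settings not given in the sources used here. Of 45101 probe sets 64 controls were left out. The platform annotation gave 1 symbol for 34945, several for 932 and none for 9160, and the brightest probe set per gene left 18193 genes.

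Their log2 values went into a model with group alone (limma 3.58.1 under R 4.3.3, lmFit then eBayes, 2-sided, Benjamini-Hochberg adjustment over all genes, threshold 0.05), checked on simulated data. Of 200 genes changed in each simulation, 1 passed at a log2 change of 0.5, 143 at 1.0 and 191 at 2.0. Not passing therefore says little about differences near 0.5. The labels call the arrays separate mice, and p-values rest on the spread between them, which also holds differences between sorts and amplifications. The number of arrays limits the precision. The members, lists, marker scores and alternatives were chosen with earlier results of these data known. Every measured member is named. Of each other pathway list the genes past the threshold are named, or else the 3 with the smallest p, and of the podocyte list the first 2. Itgam, Hba-a1, Ppbp, and the array values of Nox4 and Cybb, were singled out after they were seen. Alternatives were a filter on dim genes, other choices of probe set, quantile normalization, centring on array medians, other variance models, replicate number as a block, covariates for sex genes and marker scores, and leaving out arrays. Restricting to the arrays where Y-linked genes exceeded Xist was added after seeing the data.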

Additional observations from a re-analysis of the deposited data

Results flagged for a closer look

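Of 66 groups of array values examined (33 members in each of 2 groups), 6 had 1 array far from the rest by Dixon's criterion. Chance alone meets it in about 1 in 20 groups. OVE26 2 was the low array in 3 of them: Osgin1 at 6.05 (others 6.64 to 6.86), Gss at 6.18 (others 7.17 to 7.54) and Gpx3 at 11.67 (others 12.50 to 12.78). FVB 2 was the high array for Gclm at 7.53 (others 6.76 to 6.85) and for Prdx2 at 10.06 (others 9.77 to 9.79). OVE26 4 was the low array for Keap1 at 8.55 (others 9.25 to 9.46). All are log2 intensities.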

How the results depend on the processing

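There were 26 alternatives, of which the threshold of 0.1 adds no member differences. Of 861 member differences under the others, 743 kept direction and side of the threshold, 16 lost the call, 12 gained it and 90 changed sign. All 16 lost calls were of Gstt1, the only member called, which passed in 9 of 24 refits. For the 32 members not called, staying on that side says little. The single probe sets counted include those of the main fit. No member was called lower in any alternative. The counts of genes called higher (86), genes called lower (24) and members called higher (1) were, in that order, 284, 112 and 3 with array weights, 0, 0 and 0 without moderation of variances, 33, 8 and 0 with a sex covariate, 0, 0 and 0 with the distal score, 0, 2 and 0 with the macrophage score, 346, 150 and 4 with the red cell score, 7, 3 and 0 on arrays where Y-linked genes exceeded Xist, and 267, 108 and 3 at an adjusted p under 0.1. With the replicate block they were 19, 0 and 0. The replicate numbers only name the mice, and deviations of same-numbered arrays correlated by -0.212 to 0.129. Genes lower were 38 with dim genes left out and 51 with an intensity trend. Members higher were 2 with each of these, with the mean of probe sets and with the proximal tubule score, and 0 with quantile normalization, without OVE26 2 and OVE26 4, and over all probe sets singly. Leaving out 1 array gave 8 to 285 genes higher, 0 to 82 lower and 0 to 3 members higher.

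Members at an unadjusted p under 0.05 (11 higher, 0 lower) were 7 higher with the distal score. With the macrophage score 3 were higher and 3 lower. They were 17 higher without OVE26 2 and OVE26 4, and 8 to 16 higher and 0 to 1 lower with 1 array left out. Tested singly, 21 probe sets of members were higher, a count in which a gene with several probe sets can appear more than once. Members without overlap (6 above, 0 below) were 11 above without OVE26 2 and OVE26 4, and 6 to 11 above with 1 array left out. They were 16 above and 1 below on the arrays where Y-linked genes exceeded Xist (2 OVE26, 3 FVB). Fewer arrays make such separation easier for any gene, and the share of all genes was not counted in these fits. Over single probe sets, 11 probe sets of members lay above, again with a gene counted once per probe set. The median difference (0.21) was 0.36 with the distal score, -0.022 with the macrophage score, 0.36 on arrays where Y-linked genes exceeded Xist, and 0.13 to 0.35 with 1 array left out.

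Signs changed as follows, and the cause was not tested. With the macrophage score Nfe2l2 was -0.053, Keap1 0.050, Osgin1 -0.11, Ugdh -0.19, Gclm -0.26, Gss -0.80, Gsr -0.16, Prdx3 0.095, Prdx4 -1.28, Cat -0.087, Gpx1 -0.022, Gpx3 -0.74, Gsta4 0.22, Gstm1 -0.68 and Gstm2 -0.61. With the distal score Nfe2l2 was -0.17, Txn2 0.36, Prdx2 -0.15, Prdx3 0.26, Gsta4 0.097, Gstm2 -0.33 and Me1 0.48. Without OVE26 2 and OVE26 4 Keap1 was 0.028, Txn2 0.11, Txnrd1 -0.011, Prdx3 0.018 and Gstp1 0.087. On those where Y-linked genes exceeded Xist, Nfe2l2 was -0.17, Txn2 0.034, Sod1 0.025 and Gsta4 0.058. Single probe sets gave -0.21, -0.66 and -0.0077 for Prdx4, 0.20, 0.43, 0.18 and 0.046 for Sod1, 0.26 for Me1, 0.0013 for Txn2, -0.063 for Gss and -0.087 for Sod2, and means of probe sets -0.016 for Gss, -0.21 for Prdx4, 0.17 for Sod1 and 0.062 for Me1. Array weights gave 0.018 for Txn2 and 0.076 for Gstp1, centring on medians -0.0022 for Nfe2l2, -0.012 for Gss and -0.012 for Gpx4, and quantile normalization -0.033 for Gss, -0.053 for Prdx4 and 0.012 for Sod1. The replicate block gave -0.039 for Nfe2l2, -0.017 for Gss and -0.038 for Prdx4, and the sex covariate -0.11 for Nfe2l2 and -0.0061 for Gstm2. With 1 array left out the ranges were -0.039 to 0.18 for Nfe2l2, -0.18 to 0.053 for Keap1, -0.068 to 0.27 for Gss, -0.15 to 0.076 for Txn2, -0.14 to 0.066 for Prdx3, -0.090 to 0.37 for Prdx4, -0.061 to 0.0079 for Sod1, -0.028 to 0.084 for Gpx4, -0.17 to 0.0079 for Gsta4, -0.11 to 0.36 for Gstm2, -0.11 to 0.060 for Gstp1 and -0.28 to 0.012 for Me1.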

Other observations

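Some redox genes outside the naming rule had large differences that did not pass the adjusted threshold of limma, and they were chosen after their values were seen. Gsta2, an alpha-class transferase, read 10.11, 8.71, 10.95, 10.62 and 11.07 in OVE26 against 7.10, 10.16, 6.63 and 7.11 in FVB arrays. FVB 2 lay among the OVE26 arrays, and the difference was 2.54 (SE 0.73, adjusted p = 0.140). Gsto1, an omega-class transferase, differed by 1.69 (adjusted p = 0.0611), Mgst1, a microsomal transferase, by 1.71 (adjusted p = 0.0927), and Cbr1, a carbonyl reductase, by 0.95 (adjusted p = 0.0794), each with every OVE26 array above every FVB array. Txnip, which binds and inhibits thioredoxin and responds to glucose, differed by 0.63 (adjusted p = 0.224), with OVE26 4 at 11.44 and the other OVE26 arrays from 10.32 to 10.43. Mthfd2, a mitochondrial folate enzyme, differed by -0.90 (adjusted p = 0.188), with every OVE26 array below every FVB array.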
